A study of Mus musculus with 15 samples.

Results

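Potassium channel genes were followed in optic tissue grown from mouse embryonic stem cells, across the switch from a shared progenitor epithelium to pigment epithelium-like or neural retina-like tissue. The group was defined by name alone: every entry of the expression table whose symbol starts with Kcn, followed by letters and a number. This gave 94 of 23244 entries, of which 30 encode voltage-gated pore subunits, 10 electrically silent modifier subunits, 15 inward rectifiers, 14 two-pore-domain leak channels, 8 calcium- or sodium-activated channels and 16 auxiliary subunits, and 1 is an antisense transcript (Kcnq1ot1).

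Potassium channels set the resting potential of a cell and end its electrical activity by letting potassium leave along its gradient. In the retinal pigment epithelium, a non-spiking sheet behind the photoreceptors, inward rectifiers such as Kcnj13 recycle potassium across the apical membrane, while M-type (Kcnq) and large-conductance calcium-activated (Kcnma1) channels contribute to its basal conductances. Neurons rely on voltage-gated families (Kcna, Kcnb, Kcnc, Kcnd, Kcnq) and their auxiliary subunits to shape spikes, and on G-protein-gated inward rectifiers and leak channels to set excitability.

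The 15 libraries fell into 5 groups of 3 biological replicates. All came from an embryonic stem cell line (EB5) with GFP knocked in at 1 copy of Rx (Rx::GFP+/-), grown as floating aggregates (SFEBq) and dissected as GFP-positive epithelium. Day 10 Rx::GFP+ tissue was the starting material. The +Wnt arm received the GSK3 inhibitor CHIR99201, at 3 µM for the first 24 h and 1 µM afterwards. The +Fgf arm received 5 ng/ml human recombinant bFgf together with 10% fetal bovine serum, so that effects of bFgf and of serum cannot be told apart. Both arms were sampled at Day 12 and Day 15, and neither had an unstimulated group of the same day. The tissues are mixtures enriched for, not purified to, 1 cell type, and in such bulk RNA fewer cells of a type and less RNA per cell cannot be told apart. The libraries held 12556998 to 16175450 reads assigned to genes.

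The labels were set against defining markers. Melanogenic genes were highest in Day 15 +Wnt, where Tyr averaged 608 CPM (read counts scaled to library size by the authors) against 27.5 in Day 15 +Fgf, and Mitf 182 against 18.6. The visual cycle gene Rpe65 was at 0 in all 3 Day 15 +Wnt libraries, with Lrat at 0.634 and Best1 at 0.16 CPM. Rlbp1, a retinoid-binding gene that pigment epithelium shares with glia, averaged 251 CPM in Day 15 +Wnt and 21.1 in Day 15 +Fgf. The eye field gene Rax averaged 311 CPM in Day 15 +Fgf and 5.41 in Day 15 +Wnt. Neuron-wide genes were high in both arms at Day 15, with Tubb3 at 682 CPM in +Fgf and 575 in +Wnt and Dcx at 168 and 332, whereas the ganglion cell gene Pou4f2 stood at 82.1 and 1.53. The +Wnt tissue held neuronal transcripts beside pigment cell transcripts.

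Most channel genes were detected, and most peaked at the last day of the +Wnt arm. Of the 94 members, 61 had reads in all 15 libraries, 10 had at most 3 reads in every library, and 4 of those 10 (Kcna10, Kcnk15, Kcnk16 and Kcnmb3) were at 0 throughout. Among the 84 members above 3 reads in some library, the highest group mean lay in Day 15 +Wnt for 55, in Day 15 +Fgf for 16, in Day 12 +Fgf for 6, in Day 10 tissue for 5 and in Day 12 +Wnt for 2. The peak group was not counted over all genes of the table, so these counts do not show a trait particular to channel genes. The summed level of all members was 268 CPM ± 12.5 (SD, n = 3) at Day 10, 283 ± 16.5 in Day 12 +Fgf, 295 ± 13.6 in Day 12 +Wnt, 395 ± 11.7 in Day 15 +Fgf and 537 ± 26.4 in Day 15 +Wnt. At Day 15 the 2 arms did not overlap in this sum.

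Differences were tested with limma on log2(CPM + 0.3), a scale that understates the change of low genes, across the 13845 genes of the table with at least 1 CPM in at least 3 libraries. This left 67 members, of which 31 had at least 1 library at 1 CPM or more in every group. Another 5 had such libraries in 1 group alone: Kcnv1, Kcnj6 and Kcne3 in Day 15 +Wnt, and Kcnk3 and Kcng4 in Day 15 +Fgf, named here after their values were seen. The other 27 members had at most 20 reads in any library, and their highest group mean was 1.095 CPM (Kcns2, Day 15 +Fgf). Fold changes are log2 values for the first group named against the second, and adjusted p-values are limma's over all tested genes.

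Compared per kilobase of exon, to set genes of different length side by side, the order of the members changed between groups. Kcnj12, a strong inward rectifier, had the highest level per kilobase over all libraries (8.50 CPM per kb), followed by Kcnh2, the ERG-type channel of cardiac repolarisation (6.89), and the two-pore channel Kcnk1 (6.42). Kcnj12 and Kcnh2 held ranks 1 and 2 of the members at Day 10 and ranks 7 and 17 in Day 15 +Wnt. There the first rank passed to Kcnj5, a subunit of G-protein-gated inward rectifiers known from the heart, which had been at rank 40 at Day 10 and reached 6.31 CPM per kb. Kcne2, a single-pass auxiliary subunit, moved from rank 58 to rank 2, and Kcnk1 took rank 1 in Day 15 +Fgf with 18.1 CPM per kb.

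The pigment epithelium list comprised 5 genes, among them Kcnj13, Kcnq1, Kcnq5 and Kcnma1. Its summed level lay between 46.4 and 50.3 CPM in the Day 15 +Wnt libraries and between 8.85 and 9.75 CPM in the Day 15 +Fgf libraries, so the arms were separate. The largest part of the Day 15 +Wnt sums was Kcnq5, a gene also found in neurons, at 27.0, 27.6 and 25.0 CPM. Kcnj13 gave 1.99, 2.91 and 1.82 CPM of them. All 4 tested genes of the list were lower in Day 15 +Fgf than in Day 15 +Wnt, 3 of them at least 2-fold. Of all tested genes 30.6% were lower and 12.8% at least 2-fold lower. The median log2 fold change of the list was -2.20, against 0.05 for all tested genes. Kcnq1, a subunit of slow delayed rectifiers in heart and secretory epithelia, had at most 3 reads in any library and was not tested.

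Kcnj13, the apical inward rectifier that marks mature pigment epithelium, was highest in the starting tissue. Its levels were 6.95, 5.88 and 5.35 CPM in the Day 10 libraries, 1.39, 0.828 and 1.15 in Day 12 +Fgf, 2.83, 3.34 and 2.12 in Day 12 +Wnt, 0.959, 1.44 and 1.34 in Day 15 +Fgf and 1.99, 2.91 and 1.82 in Day 15 +Wnt. The 3 starting libraries stood above all 12 later ones. Against Day 10, Kcnj13 fell in Day 12 +Fgf (-2.17, SE 0.22, adjusted p 6.11e-07) and less steeply in Day 12 +Wnt (-1.07, SE 0.22, adjusted p 0.000613), the 2 comparisons sharing the Day 10 libraries. The +Wnt libraries lay above the +Fgf libraries at both days, without overlap (-1.10 at Day 12 and -0.70 at Day 15 for +Fgf against +Wnt, adjusted p 0.000551 and 0.0101). From Day 12 to Day 15 no change passed the test in either arm (0.13 in +Fgf and -0.27 in +Wnt, adjusted p 0.654 and 0.288).

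Kcnj13 lies at chr1:87386363-87394729 on the minus strand (GRCm38, the build of mm10), inside Gigyf2 on the opposite strand, and 623 of its 1270 exon bases overlap exons of that gene. Without a stated strand setting, reads of the 2 genes cannot be told apart over those bases. The group means of Gigyf2 itself lay between 90.7 and 108 CPM. The promoter is shown because Kcnj13 is the member most tied to pigment epithelium: 250 bases before and 50 after the start from RefSeq (GRCm38.p6, chr1:87394680-87394979, minus strand), with its only match to the searched motifs in capitals.

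Kcnj13: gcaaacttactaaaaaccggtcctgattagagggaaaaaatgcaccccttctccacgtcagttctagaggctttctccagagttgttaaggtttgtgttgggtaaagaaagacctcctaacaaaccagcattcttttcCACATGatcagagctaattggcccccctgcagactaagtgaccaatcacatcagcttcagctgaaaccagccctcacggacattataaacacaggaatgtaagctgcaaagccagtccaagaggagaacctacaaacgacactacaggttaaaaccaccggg

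The motifs searched were the E-box CACGTG, the E-box CATGTG or its reverse complement CACATG, and the T-cell factor motif CTTTGA or its reverse complement TCAAAG. They are the letters bound by MITF-type factors and by the nuclear partners of beta-catenin, and none of the 3 overlaps another. The capitals in the Kcnj13 promoter are CACATG, which with its reverse complement occurred in 15.9% of 27025 genes' promoters and in 3 of the 69 members with a promoter entry. CACGTG occurred in 8.09% of all promoters and in 6 of the 69. The T-cell factor motif occurred in 18.2% of all and in 7 of the 69.

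Kcnq5 and Kcnma1 were highest in Day 15 +Wnt. Kcnq5, an M-type channel found in both neurons and pigment epithelium, gave 27.0, 27.6 and 25.0 CPM in Day 15 +Wnt against 3.54, 3.98 and 4.45 in Day 15 +Fgf, with no overlap (-2.65, SE 0.16, adjusted p 1.91e-10). Its Day 12 arms were close, at a mean of 11.5 CPM in +Fgf and 13.3 in +Wnt (-0.19, adjusted p 0.32), and it then moved in opposite directions, falling by 1.46 on the log2 scale in +Fgf and rising by 0.99 in +Wnt. The opposite-strand transcript Gm26580 overlaps 237 of its exon bases.

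Kcnma1, the pore of the large-conductance calcium-activated channel, was at 9.99, 8.28 and 9.19 CPM in Day 15 +Wnt and at 2.51, 2.20 and 2.47 CPM in Day 15 +Fgf (-1.81, SE 0.18, adjusted p 1.52e-07). All 3 Day 15 +Wnt libraries stood above every library of the other groups, and the arms already differed at Day 12 (-0.89, adjusted p 0.000566).

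**Figure D1:**
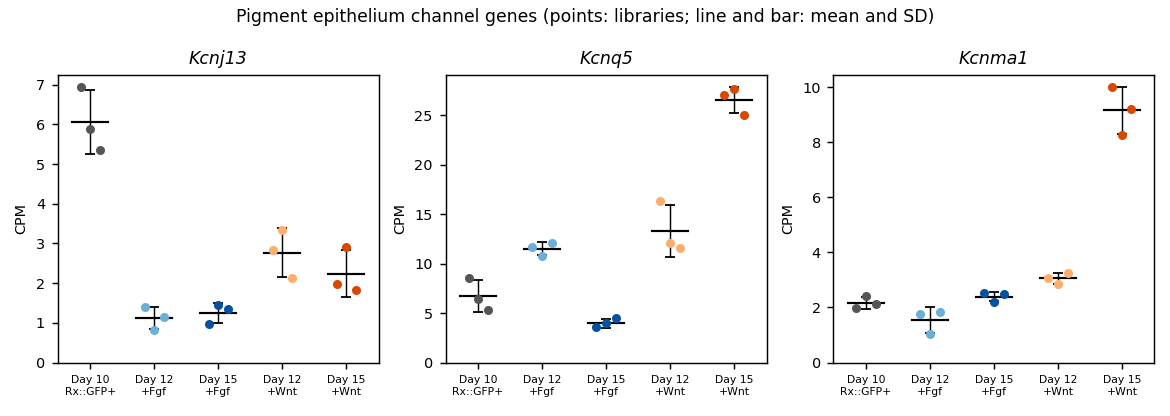
CPM of 3 pigment epithelium channel genes in each library (points), with the mean (line) and SD (bar) of each group of 3. Kcnj13 is highest at Day 10, whereas Kcnq5 and Kcnma1 are highest in the 3 Day 15 +Wnt libraries.

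Across all members, more were lower than higher in +Fgf at Day 15. In that comparison 39 of 67 tested members were lower in +Fgf than in +Wnt and 12 were higher, while 30.6% of all tested genes were lower and 38% higher. With a 2-fold limit added, 30 were lower and 7 higher, beside 12.8% and 6.93% of all tested genes. The median over the members was -0.94, against 0.05 over all tested genes. Counting libraries, 41 members had all 3 +Fgf libraries below all 3 +Wnt libraries and 15 had all above (32.65% and 40.41% of all tested genes). With quantile normalisation 11 were at least 2-fold higher, beside 9.09%. RNA integrity numbers were lower in Day 15 +Fgf than in Day 15 +Wnt, without overlap. With that number as a covariate 23 members were lower and 9 higher, beside 20.2% and 25.7% of all tested genes, and its part in the difference was not tested further.

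At Day 12 fewer members were called. Of the 67 tested, 25 were lower in +Fgf and 14 higher, where 25.2% and 26.3% of all tested genes were called. At least 2-fold, 14 were lower and 8 higher, beside 6.53% and 6.15%. With a pseudocount of 1 these counts were 7 and 4, and without Day 12 +Wnt replicate 1 the higher count was 5. Of the 25 lower members, 21 (84%) were again lower at Day 15, making up 53.9% of the 39. Of the 14 higher members 9 were higher again and 4 had crossed to lower: Kcnip1, Kcnf1, Kcnj2 and Kcnmb2, named after their values were seen. At Day 15, 58.2% of all tested members were lower and 17.9% higher. The overlaps between the days were not counted over all tested genes, so they do not show a trait particular to channel genes.

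By class, 8 of 10 tested inward rectifiers were lower in Day 15 +Fgf and 1 was higher. In this comparison 30.6% of all tested genes were lower and 38% higher, and most classes hold few genes. Of 25 tested voltage-gated pore subunits, 13 were lower and 6 higher. Auxiliary subunits had 7 of 13 lower and 1 higher, calcium- and sodium-activated channels 5 of 6 lower, two-pore channels 3 of 6 lower and 2 higher, and silent modifiers 3 of 6 lower and 1 higher. These counts include the 5 members that passed the filter on low values in 1 group alone, which had to differ. So do the Day 15 counts over all members above, with and without the 2-fold limit. Without those 5, a count added after the data were seen, 36 of 62 members were lower and 10 higher. The 62 still hold members that reached the needed 3 libraries only with those of Day 15 +Wnt, among them Kcnt1, Kcnq3 and Kcne2. This count and the class counts that follow are therefore not free of the filter's part. Inward rectifiers then had 7 of 9 lower and 1 higher, auxiliary subunits 6 of 12 and 1, two-pore channels 3 of 5 and 1, and silent modifiers 2 of 4 lower and 0 higher, with the other classes as before.

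**Figure D2:**
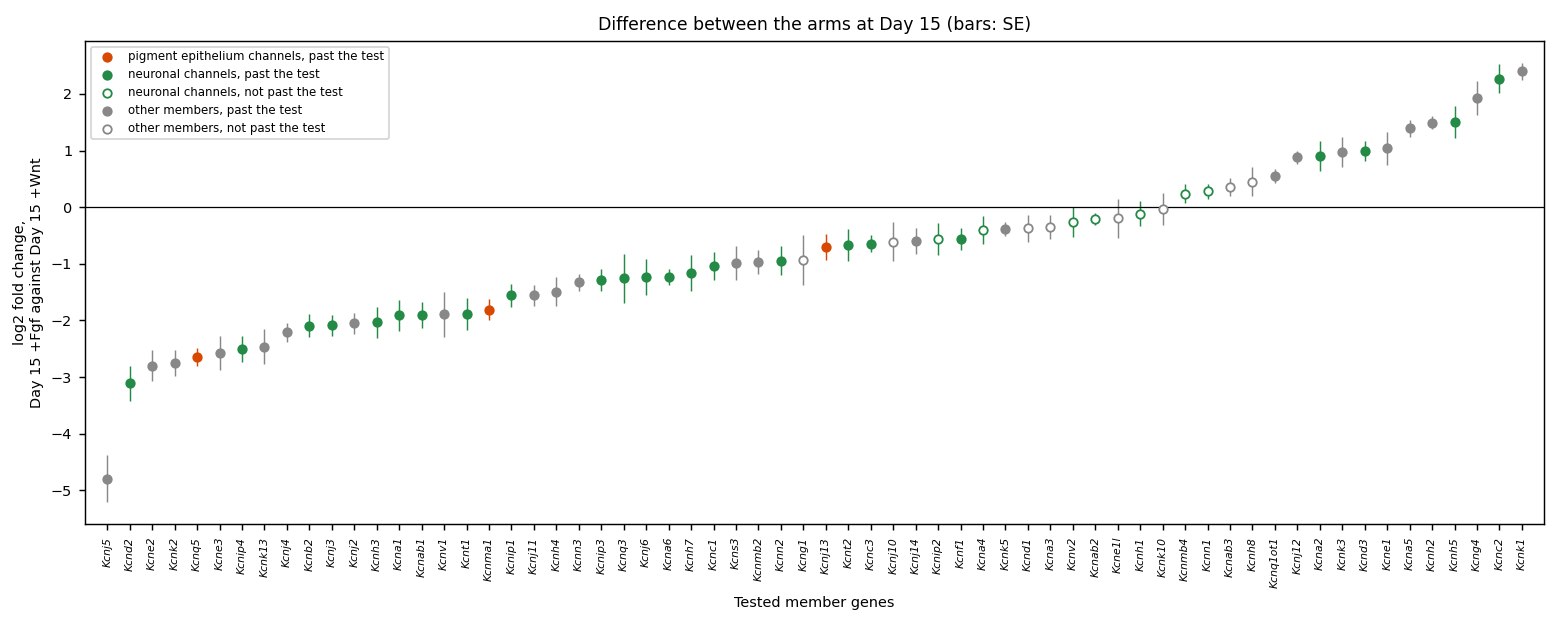
Log2 fold change of Day 15 +Fgf against Day 15 +Wnt for 64 of the 67 tested members, in ascending order, with SE bars; colours mark the list, and filled points passed limma's test. Orange pigment epithelium genes and most green neuronal genes lie below 0, and the order runs from Kcnj5 at -4.80 to Kcnk1 at 2.40.

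The widest gap of any member belonged to Kcnj5. Its levels were 30.6, 37.4 and 20.7 CPM in Day 15 +Wnt and 0.369, 1.10 and 0.919 in Day 15 +Fgf. At Day 12 they were 6.29, 6.61 and 11.2 in +Wnt and 1.52, 1.78 and 0.256 in +Fgf, and at Day 10 0.886, 0.468 and 0.535. The +Wnt libraries stood apart at both days, and their own spread was wide. Kcnj5 rose from Day 10 to Day 12 +Wnt (3.14, SE 0.42, adjusted p 7.28e-06) and again to Day 15 (1.85, adjusted p 0.000841), 2 comparisons that share the Day 12 libraries. The arms differed by -2.65 at Day 12 and -4.80 at Day 15 (SE 0.42, adjusted p 2.57e-08); without Day 12 +Fgf replicate 3 the Day 12 value was -2.05. Its promoter is given because it carried the largest difference, and it held none of the 3 motifs (RefSeq, GRCm38.p6, chr9:32344295-32344594, minus strand).

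Kcnj5: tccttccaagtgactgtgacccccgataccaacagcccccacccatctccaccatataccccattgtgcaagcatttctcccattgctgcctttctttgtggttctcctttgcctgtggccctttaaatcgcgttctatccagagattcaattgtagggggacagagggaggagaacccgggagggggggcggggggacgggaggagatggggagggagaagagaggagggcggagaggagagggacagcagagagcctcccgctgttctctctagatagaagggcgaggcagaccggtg

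Kcnj5 assembles with other G-protein-gated subunits. Kcnj3, the neuronal and cardiac subunit that forms heteromers with Kcnj5, reached 15.9, 14.5 and 16.8 CPM in Day 15 +Wnt against 2.88, 3.71 and 3.96 in Day 15 +Fgf (-2.08, adjusted p 3.85e-08). Kcnj6, the neuronal subunit, was at 1.12, 1.34 and 1.12 CPM in Day 15 +Wnt and 0.0737, 0.549 and 0.495 in Day 15 +Fgf. Kcnj9, the fourth subunit of this group, was not tested, with at most 12 reads in a library.

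Other leading genes of the +Wnt arm were A-type, leak and auxiliary genes. Kcnd2, a pore subunit of the somatodendritic A-type current, was at 12.8, 12.6 and 10.7 CPM in Day 15 +Wnt and 0.442, 1.72 and 1.62 in Day 15 +Fgf (-3.11, SE 0.31, adjusted p 1.69e-07). Kcnip4 and Kcnip1, cytoplasmic calcium-binding subunits of the same channels, were lower in Day 15 +Fgf by -2.51 and -1.56. Kcnk2, a mechanosensitive leak channel, was at 23.7, 24.5 and 19.9 CPM against 2.14, 3.64 and 3.75 (-2.76, SE 0.23, adjusted p 1.32e-08). Antisense transcript A430027H14Rik overlaps 604 of its exon bases.

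Kcne2, which modifies Kcnq and Kcnh channels and is abundant in choroid plexus epithelium, was at 10.3, 9.32 and 8.698 CPM in Day 15 +Wnt and 1.03, 1.72 and 0.707 in Day 15 +Fgf (-2.80, SE 0.27, adjusted p 1.05e-07). It was at 0 in all Day 12 +Fgf libraries. Its mean in Day 15 +Fgf was 6.03 times the 3-read floor of those libraries, so its rise in +Fgf was taken as at least 6.03-fold. Ttr, a gene shared by pigment epithelium and choroid plexus, was at 1231, 806.5 and 749 CPM in Day 15 +Wnt and at 3.61, 120.5 and 66.6 in Day 15 +Fgf, where the first library stood far below the other two. Its part in the Kcne2 difference was not tested.

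Fewer members led in the +Fgf arm. Kcnk1, a weak leak channel of many epithelia and neurons, was at 42.0, 38.0 and 41.6 CPM in Day 15 +Fgf and 8.38, 8.05 and 6.10 in Day 15 +Wnt (2.40, SE 0.15, adjusted p 6.59e-10), and the arms were already separate at Day 12 (1.33, adjusted p 1.98e-06). Kcnc2, a fast delayed rectifier of rapidly firing neurons, was at 8.78, 7.28 and 8.27 against 1.49, 1.57 and 1.26 CPM (2.27, SE 0.25, adjusted p 5.3e-07). Kcnh5, an ether-a-go-go channel, averaged 2.34 against 0.652 CPM. The Kcnk1 promoter, of the member with the largest log2 fold change in the opposite direction, also held none of the 3 motifs (RefSeq, GRCm38.p6, chr8:125994852-125995151, plus strand).

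Kcnk1: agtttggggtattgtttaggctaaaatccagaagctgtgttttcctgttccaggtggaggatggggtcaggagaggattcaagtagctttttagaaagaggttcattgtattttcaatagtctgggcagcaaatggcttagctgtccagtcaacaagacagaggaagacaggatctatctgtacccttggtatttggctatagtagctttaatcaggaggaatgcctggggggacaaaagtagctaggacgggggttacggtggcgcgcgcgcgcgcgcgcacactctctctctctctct

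Kcnh2 and Kcnd3 were also higher in Day 15 +Fgf. Kcnh2 was at 37.8, 32.3 and 35.3 CPM in Day 15 +Fgf and 13.3, 12.8 and 10.7 in Day 15 +Wnt (1.495, SE 0.11, adjusted p 3.29e-09). Every earlier library lay between 32.1 and 46.5 CPM, and only the step to Day 15 +Wnt passed the test (-1.63, adjusted p 1.59e-09). Kcnd3, the second A-type pore subunit, climbed in both arms, to 52.4, 48.9 and 51.2 CPM in Day 15 +Fgf and 23.7, 28.6 and 24.1 in Day 15 +Wnt, from means of 5.77 and 4.93 at Day 12. Its difference at Day 15 was 0.99 (adjusted p 0.000134), the opposite sign to that of Kcnd2.

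**Figure D3:**
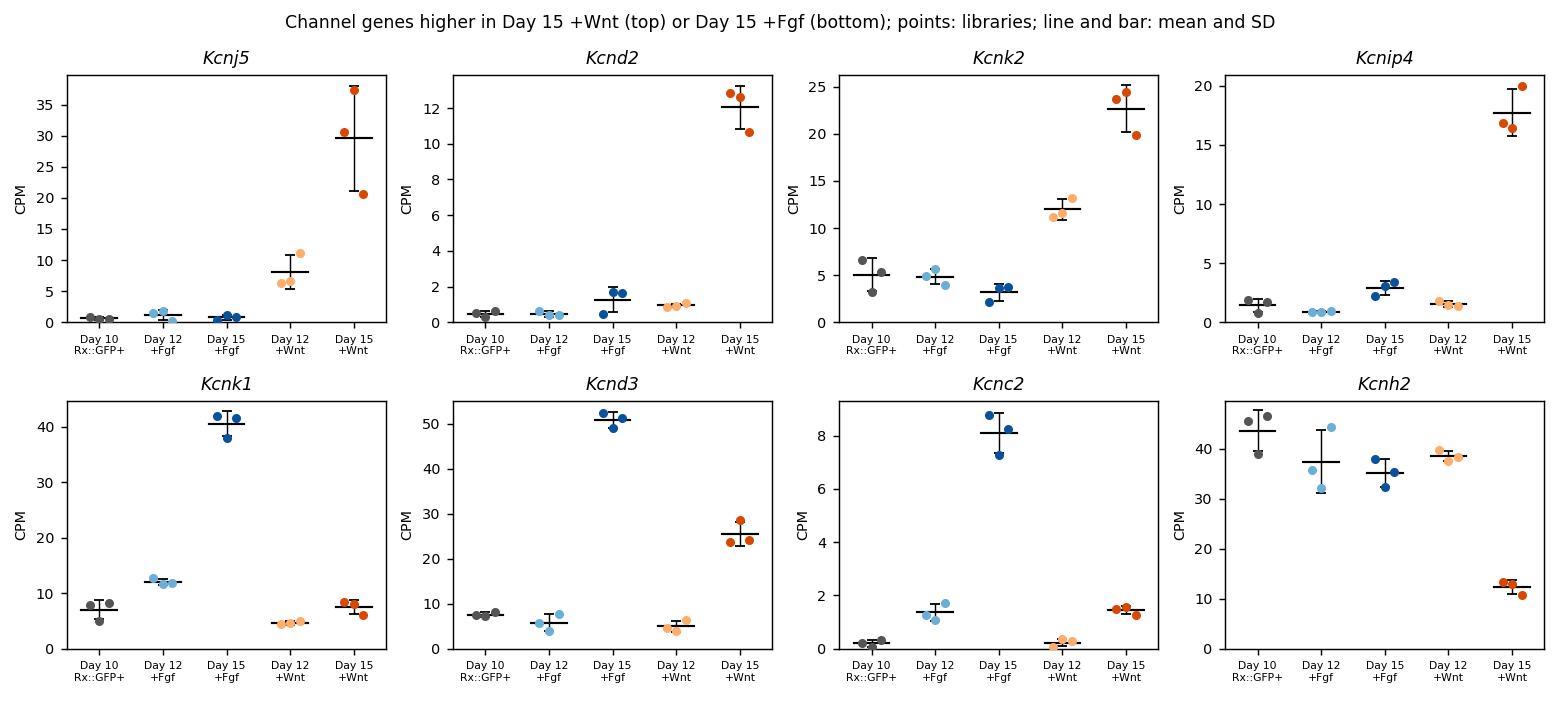
CPM of 8 members in each library (points), with the mean (line) and SD (bar) of each group of 3. The upper genes are highest in Day 15 +Wnt; of the lower ones, Kcnk1, Kcnd3 and Kcnc2 are highest in Day 15 +Fgf and Kcnh2 is lowest in Day 15 +Wnt.

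The neuronal list held 35 channel and auxiliary genes, 32 of them tested. Its summed level was 99.9 CPM at Day 10, 85.8 in Day 12 +Fgf, 111 in Day 12 +Wnt, 204 in Day 15 +Fgf and 293 in Day 15 +Wnt. At Day 15 the 3 +Fgf libraries lay between 195.0 and 213 CPM and the 3 +Wnt libraries between 283 and 306. In that comparison 20 of the 32 were lower in +Fgf, 16 of them at least 2-fold, and 4 (Kcnc2, Kcnh5, Kcnd3 and Kcna2) were higher. Of all tested genes 30.6% were lower, 12.8% at least 2-fold lower and 38% higher. Of all tested members 58.2% were lower and 44.8% at least 2-fold lower, shares near those of the neuronal list. The median was -0.99 for the neuronal list and -2.20 for the 4 pigment epithelium genes, so both lists leaned to the +Wnt arm. The median over all tested members was -0.94.

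Within the list, the M-current gene Kcnq3 was at 1.49, 2.54 and 1.12 CPM in Day 15 +Wnt and 0.0737, 0.687 and 1.13 CPM in Day 15 +Fgf (-1.26, adjusted p 0.0159), the highest +Fgf library lying level with the lowest +Wnt library. Among the fast delayed rectifiers, Kcnc1 averaged 20.3 CPM in +Wnt against 9.70 in +Fgf (-1.04), the opposite direction to Kcnc2. Axonal Kcna1 and Kcna6 were lower in +Fgf (-1.91 and -1.23) and Kcna2 higher (0.90). Kcnt1, a sodium-activated channel, was at 3.66, 3.73 and 3.72 CPM in +Wnt and 0.442, 0.618 and 1.555 in +Fgf, without overlap.

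Neuronal markers were mostly higher in the other arm. Of the 14 ganglion cell and early neuron markers 10 were higher in Day 15 +Fgf and 1 (Dcx) lower, with sums of 2518 to 2783 CPM in +Fgf and 1649 to 2043 in +Wnt. The 10 tested pigment epithelium markers were all lower in Day 15 +Fgf, with list sums of 243 to 426 CPM against 6131 to 8119. The 8 proliferation markers were all higher in Day 15 +Fgf, with sums of 2455 to 2579 CPM against 989.5 to 1063. Glial and vascular markers summed to 647 to 706 CPM in Day 15 +Fgf and 733 to 857 in Day 15 +Wnt, neural crest and melanocyte markers to 77.5 to 86.6 and 85.1 to 107.8, and photoreceptor markers to 408 to 476 and 259 to 288. The glial and vascular sum includes Rlbp1, also in the pigment epithelium list and far higher in Day 15 +Wnt, as given above. Of the 7 tested glial and vascular markers 2 were higher in Day 15 +Fgf and 3 lower, with a median of 0.107. Of the 6 tested photoreceptor markers 5 were higher in Day 15 +Fgf and 1 lower, with a median of 2.52. Crx, a photoreceptor transcription factor, averaged 102.6 CPM in Day 15 +Fgf and 2.53 in Day 15 +Wnt. Most of the +Wnt sum was Otx2, also a pigment epithelium factor, at 226 CPM against 109 in +Fgf. The neural crest gene Sox10 was at 0.0854 CPM in Day 15 +Wnt. The part of any of these cell types in the channel differences was not tested.

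Both arms were compared with the shared Day 10 libraries for the first response. Against Day 10, 13 of 67 were higher in Day 12 +Fgf and 12 lower, beside 27.9% and 27.8% of all tested genes. In Day 12 +Wnt 24 were higher and 11 lower, beside 30.6% and 29.6%. With quantile normalisation 17 were lower in Day 12 +Wnt, beside 28.5%. Kcna5, a rapid delayed rectifier of muscle and proliferating cells, rose early in +Fgf, from 7.77, 5.62 and 6.42 CPM at Day 10 to 32.6, 30.9 and 38.0 (2.31, SE 0.15, adjusted p 2.75e-09), while in Day 12 +Wnt it fell to 2.58, 2.37 and 3.18 (-1.20). Its level in Day 15 +Fgf was 12.3, 9.13 and 10.7 CPM, having fallen by 1.63 on the log2 scale from Day 12 (adjusted p 9.38e-08). Acta2, a smooth muscle gene in the vascular list, averaged 14.8 CPM at Day 10, 177 in Day 12 +Fgf and 56.2 in Day 15 +Fgf, and its part was not tested.

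In the +Wnt arm the early risers after Kcnj5 included the ether-a-go-go-like Kcnh4 (1.79), the leak channel subunit Kcnk13 (1.75) and Kcnc1 (1.71). Kcnk13 had only 4, 2 and 4 reads in the Day 10 libraries. Its value ran from 1.01 with a pseudocount of 1 to 2.63 with edgeR. Kcnip1 had the steepest early decrease, from 3.27, 3.08 and 4.36 CPM to 0.252, 0.348 and 0.530 (-2.52, SE 0.20, adjusted p 3.1e-08). It then reached 10.7, 11.0 and 10.3 CPM at Day 15, a reversal in which no library of 1 day overlapped those of the next.

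From Day 12 to Day 15 more members rose than fell in each arm. In +Fgf 38 of 67 rose and 9 fell, where 27.2% and 29.9% of all tested genes did so. In +Wnt 50 rose and 4 fell, among them Kcnh2, Kcnj12 and Kcnk5, where the shares of all tested genes were 32.5% and 35.5%. The counts of both arms include the 5 members that passed the filter on low values in 1 Day 15 group alone. For these a rise in that arm was favoured in advance. Other members, among them Kcnq3, Kcnt1 and Kcne2, passed only through Day 15 libraries of both arms, so their rises were favoured as well. No count of rises without any of these members was made. With quantile normalisation 40 rose and 10 fell in +Wnt, beside 29% and 41%, and with RNA integrity number as a covariate 27 rose and 5 fell in +Fgf, beside 13.6% and 12.4%. Of the members that rose, 35 did so in both arms, 92.1% of those in +Fgf and 70.0% of those in +Wnt, and 22 of the 35 belong to the neuronal list. Kcnk3 and Kcng4, which passed the filter in Day 15 +Fgf alone, are among the 35. So are Kcnq3, Kcnt1 and Kcne2, which passed it through Day 15 libraries alone. Of all tested members 74.6% rose in +Wnt and 56.7% in +Fgf, and 32 of the 67 are on the neuronal list. The share of all tested genes that rose in both arms was not computed, so no excess can be read from this overlap. Kcnq5, Kcnk2 and Kcna5 fell in +Fgf and rose in +Wnt.

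A test of the difference between the 2 changes (the interaction) called 22 members with a lower change in +Fgf and 7 with a higher one, beside 20.9% and 27% of all tested genes. These counts also include the 5 members that passed the filter in 1 Day 15 group alone, and those that passed only through Day 15 libraries of both arms. With RNA integrity number as a covariate the test called 10 and 2, beside 12% and 15.8%. The higher count was 15 with quantile normalisation, 12 with edgeR on recovered reads, and 5 to 11 with 1 library left out, the 11 without Day 12 +Wnt replicate 1. The largest interactions were those of Kcnj2, Kcnip1 and Kcnq5. Kcnj2, a strong inward rectifier that holds the resting potential of muscle and many other cells, was at 6.34, 5.61 and 6.39 CPM in Day 12 +Fgf and 0.885, 0.549 and 0.848 in Day 15 +Fgf, whereas in +Wnt it was at 2.89, 3.202 and 3.77 and then 3.60, 4.55 and 4.07. The +Fgf libraries went from above to below the +Wnt libraries. The pigment list gene Kcnma1 changed less in +Fgf than in +Wnt (interaction -0.92, adjusted p 0.00746), and for Kcnj13 the interaction did not pass (0.40, adjusted p 0.315).

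**Figure D4:**
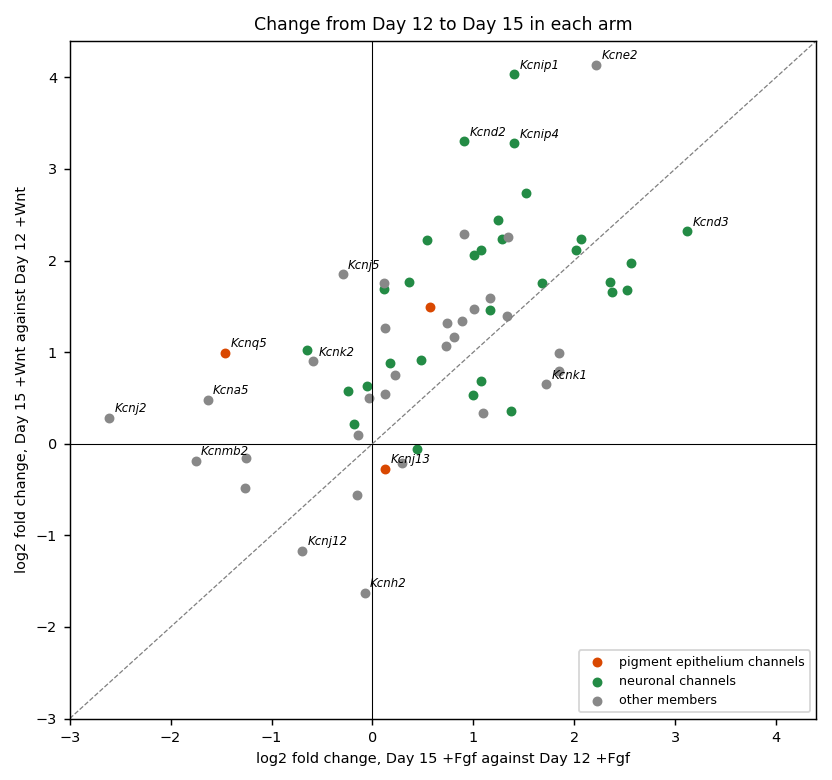
Log2 fold change from Day 12 to Day 15 in +Fgf (horizontal) and +Wnt (vertical) for 64 of the 67 tested members, with the line of equal change dashed. Most points lie above 0 on both axes; Kcnq5, Kcnk2 and Kcna5 lie in the upper left field and Kcnh2 and Kcnj12 at the bottom.

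Genes that work with channels were described from 2 further lists. Of 15 tested genes for potassium transport and hyperpolarisation-activated channels, 7 were lower in Day 15 +Fgf than in Day 15 +Wnt and 2 higher, beside the 30.6% and 38% of all tested genes in that comparison. Atp1b1, a beta subunit of the sodium pump, averaged 120 CPM in +Wnt and 59.3 in +Fgf (-1.01, adjusted p 4.43e-07). Of 10 tested partner genes, 5 were lower and 3 higher, beside the same shares. Dpp10, which binds A-type channels, averaged 6.93 CPM in +Wnt and 2.12 in +Fgf (-1.58), and Lgi1, a secreted partner of Kcna channels, 19.8 and 4.84 (-1.96). Dpp6, the other A-type partner, had 38.1 and 39.8 CPM, a difference that did not pass (0.06, adjusted p 0.712).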

How the data were processed

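RNA-Seq libraries (TruSeq Stranded mRNA) came from 15 samples, 3 biological replicates in each of 5 groups, assigned from their labels. The authors mapped reads to mm10 with TopHat 2.0.8b, estimated gene counts with Cuffdiff 2.1.1 on the UCSC transcriptome and computed with edgeR 3.2.4 the deposited values, a normalised signal the paper calls CPM; the strand setting of counting is not given in the sources used here. Columns sum to between 936418 and 1075448. Whole reads were recovered for 100% of non-zero values (tolerance 0.01 reads), 1 read being worth 0.0620 to 0.0764 CPM and 3 reads 0.186 to 0.229 CPM. Floors cover counting error only.

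Because the deposited values are normalised, the main test was limma 3.58.1 in R 4.3.3 on log2(CPM + 0.3): 5 group means, trend, two-sided, Benjamini-Hochberg adjustment over 13845 genes, threshold 0.05. Simulated counts for Day 15 +Fgf against Day 15 +Wnt, with 200 changed genes, returned 203 calls, 196 of them true. The simulation used the libraries of those groups only and a fixed spread between replicates. It changed far fewer genes than the 38% higher and 30.6% lower of the data. It therefore checks that the test runs properly and does not give the error rate of the main fit. Replicates differed by 2.61 to 8.29 chi-square per degree of freedom, so no library was repeated within a group. Libraries of different groups were not compared in this way. Alternatives (25) included edgeR 4.0.16 on recovered reads, other pseudocounts, filters and normalisations, RNA integrity number as a covariate, a replicate block and leaving out each library. Exon lengths, positions and overlaps came from GENCODE (GRCm38) and promoters from RefSeq (GRCm38.p6); all 94 members had an annotated gene, and 29 have exons that overlap another gene.

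Named genes were those of the pigment epithelium and neuronal lists, up to 5 members with the largest change each way per comparison (at least 1 CPM in the higher group), and the 10 highest per kilobase. The members and the 11 gene lists were chosen with earlier results of these data known. Some genes that the rule picked are not reported here, though list counts and sums include them. Reads and protein sequences were not used here.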

Additional observations from a re-analysis of the deposited data

Results flagged for a closer look

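For 15 of 31 members named by their largest changes, the log2 change from Day 12 to Day 15 differed between +Fgf and +Wnt in limma's interaction test (change in +Fgf minus change in +Wnt), 11 with a lower and 4 with a higher change in +Fgf. Among inward rectifiers the difference was -2.89 for Kcnj2, -2.14 for Kcnj5 and 0.47 for Kcnj12. Among voltage-gated subunits it was -2.46 for Kcnq5, -2.39 for Kcnd2, -2.12 for Kcna5, 0.80 for Kcnd3 and 1.55 for Kcnh2. Among leak channels it was -1.49 for Kcnk2, -1.14 for Kcnk13 and 1.07 for Kcnk1. Among auxiliary subunits it was -2.63 for Kcnip1, -1.92 for Kcne2, -1.87 for Kcnip4 and -1.57 for Kcnmb2.

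The Kcne2 value rests on a group at 0 (Day 12 +Fgf) and so on the pseudocount, and it is no bound. The Kcnk13 and Kcnj12 calls were lost in several leave-one-out fits, and the Kcnd3 call without Day 12 +Wnt replicate 3 (adjusted p 0.0534). Groups of 3 libraries were not examined for single outlying libraries.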

How the results depend on the processing

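For the 34 genes the naming rule picked, 2173 of 2243 recomputed values kept their direction and side of the threshold, 28 lost the call, 41 gained one, and 1 reversed: the Kcne2 interaction, 1.93 with edgeR on recovered reads (adjusted p 0.209), where Day 12 +Fgf holds 0 reads. Outside the interaction 1 call was lost, Kcnj14 between Day 12 and Day 15 +Fgf with RNA integrity number as a covariate (adjusted p 0.433). With that covariate the interactions of Kcnj5, Kcnd3, Kcnj12, Kcnk1, Kcnk2, Kcnk13 and Kcnd2 also lost their calls (adjusted p 0.297, 0.165, 0.976, 0.0911, 0.0633, 0.376 and 0.0558).

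Of 448 recomputed counts of members 420 stayed within 1.5 times. The filter of 10 CPM left 24 members to test and so gave fewer calls: against Day 10, 4 higher and 4 lower in Day 12 +Fgf, and 8 higher and 7 lower in Day 12 +Wnt; from Day 12 to Day 15, 13 higher in +Fgf and 19 higher in +Wnt; in +Fgf against +Wnt, 5 higher and 10 lower at Day 12 and 6 higher and 15 lower at Day 15; at least 2-fold, 3 and 5 at Day 12 and 3 and 12 at Day 15; and 12 with a lower interaction. With RNA integrity number as a covariate, 23 members were lower in Day 15 +Fgf than in Day 15 +Wnt, 5 fell in +Fgf from Day 12 to Day 15, and the interaction called 2 higher and 10 lower. Quantile normalisation gave 17 lower in Day 12 +Wnt than at Day 10, 10 falling in +Wnt, 15 with a higher interaction and 11 at least 2-fold higher in Day 15 +Fgf. edgeR gave 12 with a higher interaction. Leaving out 1 library in turn gave 5 to 11 members with a higher interaction (11 without Day 12 +Wnt replicate 1) and 5 to 8 at least 2-fold higher at Day 12 (5 without the same library). A pseudocount of 1 gave 4 members at least 2-fold higher and 7 lower at Day 12. The cause of these shifts, beyond the filter's fewer genes, was not tested. No scaling moved the median of all genes by 0.1 or more on the log2 scale.

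Same-numbered replicates did not deviate together (correlations of -0.253 to 0.215), so the numbers name samples and do not pair them. With a replicate block the counts at Day 15 were 39 lower and 12 higher, as without it, and the interaction called 23 lower and 7 higher. Low genes are limited by depth, and their fold changes moved with the pseudocount: for Kcnj5 at Day 15 the value ran from -5.24 with edgeR to -4.07 with a pseudocount of 1.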
